A study of Mus musculus with 12 samples.

Results

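The mitochondrial citric acid cycle was followed through 9 of its enzymes and enzyme subunits in mouse liver: citrate synthase (Cs), the NADP-linked isocitrate dehydrogenase (Idh2), 2 subunits of the NAD-linked isocitrate dehydrogenase (Idh3a and Idh3b), the first subunit of the 2-oxoglutarate dehydrogenase complex (Ogdh), 2 subunits of succinyl-CoA ligase (Sucla2 and Suclg1), fumarate hydratase (Fh1) and malate dehydrogenase (Mdh2). They were chosen by gene name on the array. All 9 passed the filter on dim probes and are among 20584 genes tested, and each gene was read from its brightest tested probe. All 12 probes of the 9 genes were well above background on every array, so no member entered through 1 group alone.

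The study hybridised liver RNA of 3 groups of 4 mice to one-colour Agilent arrays, 1 array per mouse. The groups were E2f1-/- mice, mice labelled E2f2-/- and wild-type mice of a mixed 129/Sv x C57BL/6 background. All 3 groups, wild type included, carry by their treatment label 1 dose of the liver carcinogen diethylnitrosamine (25 mg/kg on postnatal day 14) and then, from weaning at 1 month, a high-fat diet with 60% of calories as fat for 32 weeks. Livers were taken at 9 months of age after a 4-hour fast. One label of the E2f1 knockout samples names vehicle and chow instead, against their title, description, treatment and diet labels, and was not used. The mice carry their alleles in every tissue as far as the labels say, no untreated or chow-fed group is included here, and liver homogenate rather than a sorted cell type was measured.

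Values are log2 signals relative to the 75th percentile of the same array, so that 0 is the signal of that percentile and a difference of 1 is a doubling. Levels of different genes come from different probes and were not compared. Because the labels name E2f1 and E2f2 as the deleted genes, their own probes were read first. The E2f1 probe was at -0.55, -0.72, -0.47 and -0.62 in E2f1 knockout livers, against -0.10, 0.32, 0.64 and 0.10 in wild type. These groups did not overlap, and the log2 difference was -0.83 ± 0.19 (SE, limma adjusted p = 0.0106), with the probe still above background on every knockout array. The E2f2 probe was at 0.35, 0.88, 0.88 and 0.66 in the E2f2-labelled livers, against 0.65, 1.24, 1.16 and 0.88 in wild type. These overlap, and the difference of -0.29 ± 0.21 did not pass (adjusted p = 0.361), so that group is called by its label throughout. In E2f1 knockout livers the E2f2 probe was lower than in wild type by a log2 difference of -1.51 ± 0.21 (adjusted p = 0.00135). The sources used here do not say where the probes lie relative to the deleted parts.

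The citric acid cycle joins acetyl-CoA, made from pyruvate or fatty acids, to oxaloacetate and oxidises the resulting citrate stepwise in the mitochondrial matrix, passing electrons to the respiratory chain as NADH and through succinate dehydrogenase. Its enzymes are encoded in the nucleus and imported, and several are complexes of unlike subunits. In liver the cycle also supplies carbon for glucose and lipid synthesis. E2F1 and E2F2 are transcription factors best known for the control of cell cycle genes by the retinoblastoma protein.

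The sequences of 3 probes are shown, each of which reads through in 1 frame without a stop, as some other member probes also do. One is the second Fh1 probe, which is not the one the gene was read from. Its position on the files' mm9 build runs over 2431 bases (chr1:177531659-177534089, minus strand) and so spans an intron. The others are the probes of Idh3b (chr2:130106776-130106835, minus strand) and Suclg1 (chr6:73221044-73221103, plus strand), the pair of genes with the widest gap between E2f2-labelled and E2f1 knockout livers. All 3 sequences are written 5′ to 3′ in the sense of the transcript.
Fh1: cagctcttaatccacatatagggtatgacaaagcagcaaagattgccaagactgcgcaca
Idh3b: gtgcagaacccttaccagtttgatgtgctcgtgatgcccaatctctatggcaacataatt
Suclg1: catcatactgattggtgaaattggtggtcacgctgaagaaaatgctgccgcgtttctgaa

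The promoters of Sucla2, Fh1 and Mdh2 are shown because these genes passed the test in both comparisons with wild type. Idh3a did so too, but its promoter was not among those used here. Each line holds the 250 bases before the start site from RefSeq (GRCm38), 5′ to 3′ on the gene's strand: chr14:73552536-73552785 (plus) for Sucla2, chr1:175625636-175625885 (minus) for Fh1 and chr5:135778399-135778648 (plus) for Mdh2. Capitals mark matches, on either strand, to 8 sets of letters: GCGCANGCG (NRF1), CCGGAAG (ETS factors such as GABPA), TNAAGGTCA (estrogen-related receptors), AANATGGCG (YY1), TGACGTCA (CREB), TTTNNCGC (E2F), CCAATNA (NF-Y) and CTCGCGAG. The last set was added, and the NRF1 set shortened by 1 letter, after the sequences had been read.
Sucla2: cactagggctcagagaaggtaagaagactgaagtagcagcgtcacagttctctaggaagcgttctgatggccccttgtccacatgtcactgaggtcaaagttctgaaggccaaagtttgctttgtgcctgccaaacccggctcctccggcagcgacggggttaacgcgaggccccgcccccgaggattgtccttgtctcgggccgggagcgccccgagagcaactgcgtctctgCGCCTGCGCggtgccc
Fh1: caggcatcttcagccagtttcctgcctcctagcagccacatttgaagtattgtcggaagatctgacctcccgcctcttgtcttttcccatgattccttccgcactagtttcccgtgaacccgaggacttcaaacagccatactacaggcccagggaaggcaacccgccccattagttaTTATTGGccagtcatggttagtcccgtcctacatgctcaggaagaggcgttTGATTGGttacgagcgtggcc
Mdh2: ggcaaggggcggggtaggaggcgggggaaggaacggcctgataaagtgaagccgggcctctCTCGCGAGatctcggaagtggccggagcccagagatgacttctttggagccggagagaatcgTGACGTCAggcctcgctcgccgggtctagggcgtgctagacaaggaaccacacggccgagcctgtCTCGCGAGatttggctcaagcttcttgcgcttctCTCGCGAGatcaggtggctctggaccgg

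No match overlapped another, and no set of letters was in more than 1 of these 3 promoters. Sucla2 has 1 NRF1 match starting 16 bases before its start site, Fh1 has 2 NF-Y matches, and Mdh2 has 1 CREB match and 3 copies of CTCGCGAG. Among the other members with a promoter (8 of the 9 in all) matches stood only before Ogdh, of CREB at 3 and of NRF1 at 2 of its 6 start sites. Of 32851 mouse promoter windows of this length, 5.16% hold the NRF1 letters, 14.2% the NF-Y letters, 1.55% the CREB letters, 0.761% CTCGCGAG and 4.28% the E2F letters, which no member promoter holds. The other 3 sets, of ETS factors (6.91%), estrogen-related receptors (1.14%) and YY1 (1.12%), are in no member promoter either. A match describes these letters only.

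In E2f1 knockout livers, 6 of the 9 genes rose against wild type, none fell and 3 did not pass the test. Fh1, Sucla2, Idh3b, Suclg1, Idh3a and Mdh2 rose, by 1.46-fold to 2.28-fold, while Ogdh, Cs and Idh2 did not pass. Over all genes tested, 12.8% were called higher in this comparison, 7.48% lower and 20.3% in either direction. The median log2 difference was 0.69 over the 9 genes and 0.12 over all genes tested. In 5 of the 9 the E2f1 knockout arrays all lay above the wild-type arrays, as in 14.0% of all genes, and in none did they all lie below, as in 6.99%. Scaling mattered: among all calls 63.1% were higher, but 50.4% after quantile normalization and 51% after median centring, and the members called then were 3 and 2. The shares of all genes called given above are those of the reported scaling. Under the alternatives tried, 2522 to 5774 genes in all were called in this comparison.

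In E2f2-labelled livers, 5 of the 9 rose against the same wild-type arrays and none fell: Fh1, Ogdh, Idh3a, Sucla2 and Mdh2, by 1.35-fold to 2.24-fold. Idh3b, Suclg1, Cs and Idh2 did not pass. Over all genes 12.5% were called higher, 7.86% lower and 20.3% in either direction. The median log2 difference was 0.44 over the 9 genes and 0.15 over all genes tested. Groups lay apart, E2f2-labelled above, for 3 of the 9 and for 15.1% of all genes, and with E2f2-labelled below for none of the 9 and for 7.49% of all genes. Of all calls 61.4% were higher, but 49.4% after quantile normalization and 47.6% after median centring, and the members called higher then were 2 and 1, with Idh2 called lower under quantile normalization. Here too the shares of all genes called are those of the reported scaling, and 2565 to 6460 genes were called under the alternatives.

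**Figure D1:**
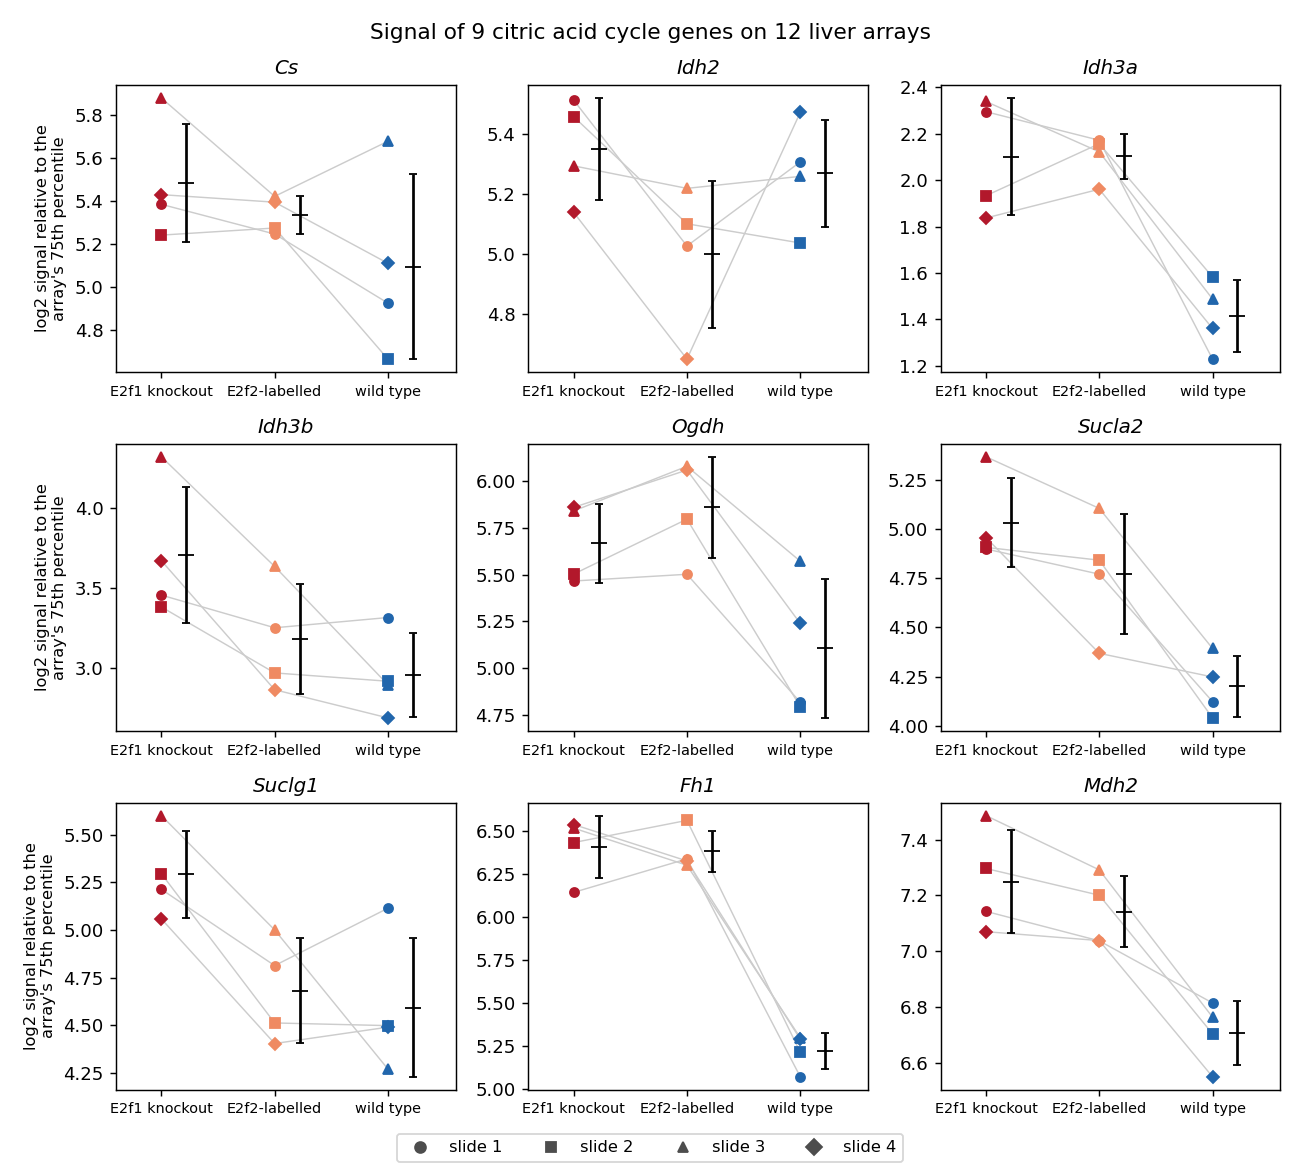
Signal of each of the 9 genes (vertical axis, log2 relative to the array's 75th percentile) on the 4 arrays of each group; the symbol gives the slide, grey lines join arrays of 1 slide, and black marks are the mean and SD (n = 4 mice). For Fh1 the 8 E2f1 knockout and E2f2-labelled arrays lie between 6.14 and 6.56, above the wild-type arrays at 5.07 to 5.30, while the 3 groups of Idh2 overlap.

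Citrate synthase condenses acetyl-CoA with oxaloacetate and is the entry step of the cycle. Cs was at 5.38, 5.24, 5.88 and 5.43 in E2f1 knockout livers, at 5.25, 5.27, 5.42 and 5.39 in E2f2-labelled livers, and at 4.93, 4.67, 5.68 and 5.11 in wild type. The third wild-type liver was above all E2f2-labelled livers, so the groups overlap, and the SD was 0.28 in E2f1 knockout livers, 0.09 in E2f2-labelled livers and 0.43 in wild type. Neither difference passed: 0.39 ± 0.21 in E2f1 knockout (adjusted p = 0.222) and 0.24 ± 0.21 in E2f2-labelled livers (adjusted p = 0.449). The 95% intervals, -0.07 to 0.85 and -0.22 to 0.70, still hold rises as large as those of other members.

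Of the isocitrate dehydrogenases, Idh3a encodes the catalytic subunit of the NAD-linked enzyme, a rate-controlling step of the cycle. Idh3a was at 2.30, 1.93, 2.34 and 1.84 in E2f1 knockout livers, at 2.17, 2.16, 2.12 and 1.96 in E2f2-labelled livers, and at 1.23, 1.58, 1.49 and 1.36 in wild type. All 8 E2f1 knockout and E2f2-labelled arrays were above all wild-type arrays. The log2 difference was 0.69 ± 0.15 in E2f1 knockout (adjusted p = 0.00978) and 0.69 ± 0.15 in E2f2-labelled livers (adjusted p = 0.00947). E2f2-labelled and E2f1 knockout livers differed by less than 0.01 (95% interval -0.33 to 0.33).

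Idh3b, a partner subunit that assembles with Idh3a, was at 3.46, 3.38, 4.32 and 3.67 in E2f1 knockout livers, at 3.25, 2.97, 3.64 and 2.87 in E2f2-labelled livers, and at 3.32, 2.92, 2.90 and 2.69 in wild type. The E2f1 knockout livers were all above wild type, the lowest by a small margin, and the third E2f1 knockout liver was well above the others. The E2f2-labelled and wild-type livers overlap. The difference was 0.75 ± 0.24 in E2f1 knockout (adjusted p = 0.0432), a call that 12 of 25 alternative settings kept, and 0.23 ± 0.24 in E2f2-labelled livers (adjusted p = 0.536). The third subunit of the enzyme, Idh3g, did not pass in either comparison (0.50 ± 0.21, adjusted p = 0.12, in E2f1 knockout and 0.50 ± 0.21, adjusted p = 0.115, in E2f2-labelled livers), but passed in both with the slide as a block (adjusted p = 0.0088 and 0.00865).

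Idh2 makes NADPH from isocitrate in the matrix and works in either direction beside Idh3. Idh2 was at 5.51, 5.46, 5.29 and 5.14 in E2f1 knockout livers, at 5.03, 5.10, 5.22 and 4.65 in E2f2-labelled livers, and at 5.31, 5.04, 5.26 and 5.47 in wild type. All 3 groups overlap, with the lowest value in E2f2-labelled liver 4. The difference was 0.08 ± 0.16 in E2f1 knockout (adjusted p = 0.779) and -0.27 ± 0.16 in E2f2-labelled livers (adjusted p = 0.259). Relative to wild type its direction in E2f1 knockout turned to -0.19 under quantile normalization, and in E2f2-labelled livers the difference became -0.51 and passed (adjusted p = 0.0467). Its cytosolic relative Idh1 rose in E2f2-labelled livers (0.83 ± 0.23, adjusted p = 0.0271), and in E2f1 knockout the difference was 0.66 ± 0.23 (adjusted p = 0.0652, or 0.0328 with the slide as a block).

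Ogdh is the decarboxylating subunit of the 2-oxoglutarate dehydrogenase complex, which makes succinyl-CoA. Its brightest probe was at 5.47, 5.50, 5.84 and 5.86 in E2f1 knockout livers, at 5.50, 5.80, 6.08 and 6.06 in E2f2-labelled livers, and at 4.82, 4.79, 5.57 and 5.24 in wild type. The third wild-type liver lay above the lowest livers of both other groups. The difference was 0.75 ± 0.21 in E2f2-labelled livers (adjusted p = 0.024). In E2f1 knockout it was 0.56 ± 0.21 and did not pass (adjusted p = 0.0749), but passed with the slide as a block (0.56 ± 0.12, adjusted p = 0.0104). Within the 4 slides it ranged from 0.27 to 0.71 in E2f1 knockout and from 0.51 to 1.00 in E2f2-labelled livers.

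A pair of further probes carry the name Ogdh. One starts 72 bases from the brightest and gave 0.45 ± 0.19 in E2f1 knockout (adjusted p = 0.131) and 0.70 ± 0.19 in E2f2-labelled livers (adjusted p = 0.0258). The other starts 2399 bases further downstream and gave 0.07 ± 0.17 (adjusted p = 0.831) and -0.15 ± 0.17 (adjusted p = 0.574), so the probes disagree. These p were adjusted over 28450 probes. The adjacent probes gave like values, and the distant one lay near 0 in both comparisons. Of the partner subunits, Dlst, the succinyl-transferring core, rose in E2f1 knockout (0.55 ± 0.12, adjusted p = 0.0102) and was at 0.36 ± 0.12 in E2f2-labelled livers (adjusted p = 0.0583, or 0.0341 with the slide as a block). Dld, shared with other 2-oxoacid dehydrogenases, rose in E2f1 knockout (0.55 ± 0.18, adjusted p = 0.0482) and was at 0.21 ± 0.18 in E2f2-labelled livers (adjusted p = 0.441).

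Succinyl-CoA ligase pairs the shared subunit Suclg1 with Sucla2, which makes ATP, or with Suclg2, which makes GTP. Sucla2 was at 4.90, 4.91, 5.37 and 4.96 in E2f1 knockout livers, at 4.77, 4.84, 5.10 and 4.37 in E2f2-labelled livers, and at 4.12, 4.04, 4.39 and 4.25 in wild type. Every E2f1 knockout liver was above wild type, whereas E2f2-labelled liver 4 fell within the wild-type range. The difference was 0.83 ± 0.18 in E2f1 knockout (adjusted p = 0.0084), which passed under all 25 alternatives, and 0.57 ± 0.18 in E2f2-labelled livers (adjusted p = 0.0411), which passed under 10 of 25.

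Suclg1 was at 5.21, 5.30, 5.60 and 5.06 in E2f1 knockout livers, at 4.81, 4.51, 5.00 and 4.40 in E2f2-labelled livers, and at 5.11, 4.50, 4.27 and 4.49 in wild type. The first wild-type liver reached into the E2f1 knockout range, and the E2f2-labelled livers overlapped wild type. The difference was 0.70 ± 0.21 in E2f1 knockout (adjusted p = 0.0336; 13 of 25 alternatives passed) and 0.09 ± 0.21 in E2f2-labelled livers (adjusted p = 0.798). Suclg2 rose in E2f1 knockout (0.69 ± 0.18, adjusted p = 0.0214) and was at 0.30 ± 0.18 in E2f2-labelled livers (adjusted p = 0.268).

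Fumarate hydratase converts fumarate to malate, in the matrix and also in the cytosol. Fh1 was at 6.14, 6.43, 6.52 and 6.54 in E2f1 knockout livers, at 6.34, 6.56, 6.30 and 6.33 in E2f2-labelled livers, and at 5.07, 5.21, 5.30 and 5.29 in wild type. The E2f1 knockout and the E2f2-labelled livers both lay apart from wild type by more than the spread of any group. The log2 difference was 1.19 ± 0.14 in E2f1 knockout (2.28-fold, adjusted p = 0.000404) and 1.16 ± 0.14 in E2f2-labelled livers (2.24-fold, adjusted p = 0.000297). Within slides it ranged from 1.07 to 1.25 and from 1.00 to 1.35, and it passed under all 25 alternatives in both comparisons. The second probe, printed above, gave 1.23 ± 0.15 (adjusted p = 0.000567) and 1.10 ± 0.15 (adjusted p = 0.000788).

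Mdh2 oxidises malate to oxaloacetate and closes the cycle. Mdh2 was at 7.14, 7.30, 7.49 and 7.07 in E2f1 knockout livers, at 7.04, 7.20, 7.29 and 7.04 in E2f2-labelled livers, and at 6.81, 6.70, 6.76 and 6.55 in wild type. All 8 E2f1 knockout and E2f2-labelled arrays were above all wild-type arrays. The difference was 0.54 ± 0.14 in E2f1 knockout (adjusted p = 0.0175; 19 of 25 alternatives passed) and 0.44 ± 0.14 in E2f2-labelled livers (adjusted p = 0.0431; 10 of 25 passed). Its cytosolic relative Mdh1, of the malate-aspartate shuttle, rose in both: 1.10 ± 0.16 in E2f1 knockout (adjusted p = 0.00163) and 0.64 ± 0.16 in E2f2-labelled livers (adjusted p = 0.0174). Of 4 cytosolic counterparts 2 rose in E2f1 knockout, Mdh1 and Aco1 (0.75 ± 0.21, adjusted p = 0.0236), and 3 in E2f2-labelled livers, Mdh1, Idh1 and Aco1 (0.91 ± 0.21, adjusted p = 0.0102). The remaining one, Acly, which splits citrate in the cytosol, did not pass (0.11 ± 0.22, adjusted p = 0.78, and -0.01 ± 0.22, adjusted p = 0.988). With quantile normalization Aco1 alone of the 4 passed in E2f2-labelled livers, where Mdh1 had an adjusted p of 0.0812 and Idh1 of 0.0639.

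**Figure D2:**
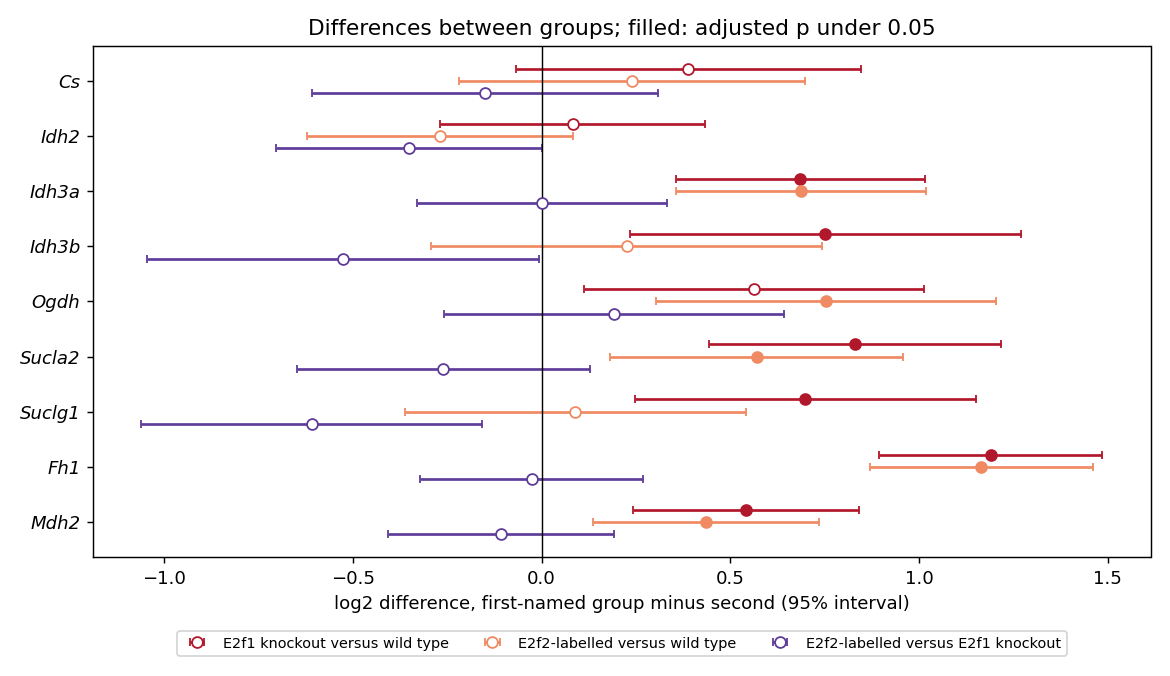
Log2 difference of each gene (horizontal axis; points, with 95% intervals as bars) in the 3 comparisons; filled points passed an adjusted p under 0.05. Fh1 is the farthest right in both comparisons with wild type, at 1.19 and 1.16, and no point of the comparison of E2f2-labelled with E2f1 knockout livers is filled.

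Set directly against each other, E2f2-labelled and E2f1 knockout livers differed in none of the 9 genes by limma's adjusted p, with 1.59% of all genes called. The widest gaps, none of which passed, were those of Suclg1 (-0.61 ± 0.21, adjusted p = 0.241), Idh3b (-0.53 ± 0.24, adjusted p = 0.43) and Idh2 (-0.35 ± 0.16, adjusted p = 0.44). Of the 9 fitted differences 7 were negative, that is lower in E2f2-labelled livers, and the median was -0.15, against 0.01 over all genes tested. Suclg1 was the 1 member whose groups lay apart (E2f2-labelled below), as in 4.18% of all genes. A rise that passed against wild type in E2f1 knockout alone, as for Idh3b and Suclg1, is therefore not shown to differ between E2f2-labelled and E2f1 knockout livers. For Fh1 the interval of the difference, -0.32 to 0.27, excludes a gap as wide as that to wild type.

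The mean of the 9 genes was 5.06, 5.05, 5.41 and 5.06 in E2f1 knockout livers, 4.91, 4.94, 5.13 and 4.79 in E2f2-labelled livers, and 4.52, 4.38, 4.62 and 4.49 in wild type. The third array of each group, which share a slide, was the highest of its group. Within the 4 slides the mean was higher than in wild type by 0.53, 0.67, 0.78 and 0.57 in E2f1 knockout and by 0.38, 0.55, 0.51 and 0.29 in E2f2-labelled livers, and lower in E2f2-labelled than in E2f1 knockout livers by 0.15, 0.12, 0.27 and 0.28. Each group kept 1 position on all 4 slides (2 for wild type, 3 for E2f1 knockout and 4 for E2f2-labelled livers), so position and genotype cannot be told apart. The row on the slide changed between slides but was shared by the 3 groups of each slide.

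Some calls were lost without 1 array, among the members and among all genes. Of all 20584 genes, 2522 to 4857 were called in E2f1 knockout with 1 array left out, against 4177 with all arrays. In E2f2-labelled livers 2565 to 5139 were called, against 4187. Without the third E2f1 knockout array, 3 of the 9 genes passed in E2f1 knockout (Idh3a, Sucla2 and Fh1). In E2f2-labelled livers, leaving out any 1 array other than wild-type array 3 and E2f1 knockout arrays 3 and 4 left 2 or 3 of the 9 passing, with Idh3a and Fh1 passing each time.

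After centring each gene on its own mean over the 12 arrays, Mdh2 lay nearest to the mean pattern of the 9 (root mean square difference 0.098 on the log2 scale), then Sucla2 (0.128) and Idh3a (0.191). Idh2 and Fh1 lay farthest (0.347 each). Outside the 9, the genes nearest to their mean pattern were Pmpcb, a subunit of the protease that trims imported mitochondrial proteins (0.068), Skp1 of the SCF ubiquitin ligases (0.069), the mitochondrial RNA-binding protein Grsf1 (0.073), the peroxisomal import factor Pex14 (0.074), and the ATP synthase subunits Atp5c1 (0.075) and Atp5a1 (0.077). This is a ranking over these arrays without a test.

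The other 9 genes of the cycle were read from the same fit, in a list chosen for this purpose with earlier results of these data known. In E2f1 knockout 7 of them rose and none fell, and in E2f2-labelled livers 3 rose and none fell, or 5 with the slide as a block. With quantile normalization 3 rose in E2f1 knockout and none passed in E2f2-labelled livers, where Sdha, Sdhb and Sdhd had adjusted p of 0.0826, 0.0722 and 0.187; Sdhd (adjusted p = 0.0638), Dlst (0.0553) and Dld (0.067) then did not pass in E2f1 knockout. Their median differences, 0.69 and 0.38, were set beside 0.12 and 0.15 over all genes. The subunits of succinate dehydrogenase, which feeds electrons to the respiratory chain, included the largest: Sdhb 1.04 ± 0.20 (adjusted p = 0.00491) and 0.75 ± 0.20 (adjusted p = 0.0193), Sdha 0.98 ± 0.15 (adjusted p = 0.00194) and 0.61 ± 0.15 (adjusted p = 0.015), and Sdhd 0.79 ± 0.17 (adjusted p = 0.00962) and 0.57 ± 0.17 (adjusted p = 0.0366), the first value of each being for E2f1 knockout and the second for E2f2-labelled livers. Sdhc did not pass in either (E2f1 knockout 0.40 ± 0.15, adjusted p = 0.0811, and E2f2-labelled 0.34 ± 0.15, adjusted p = 0.131), but passed in E2f1 knockout with the slide as a block (adjusted p = 0.047).

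**Figure D3:**
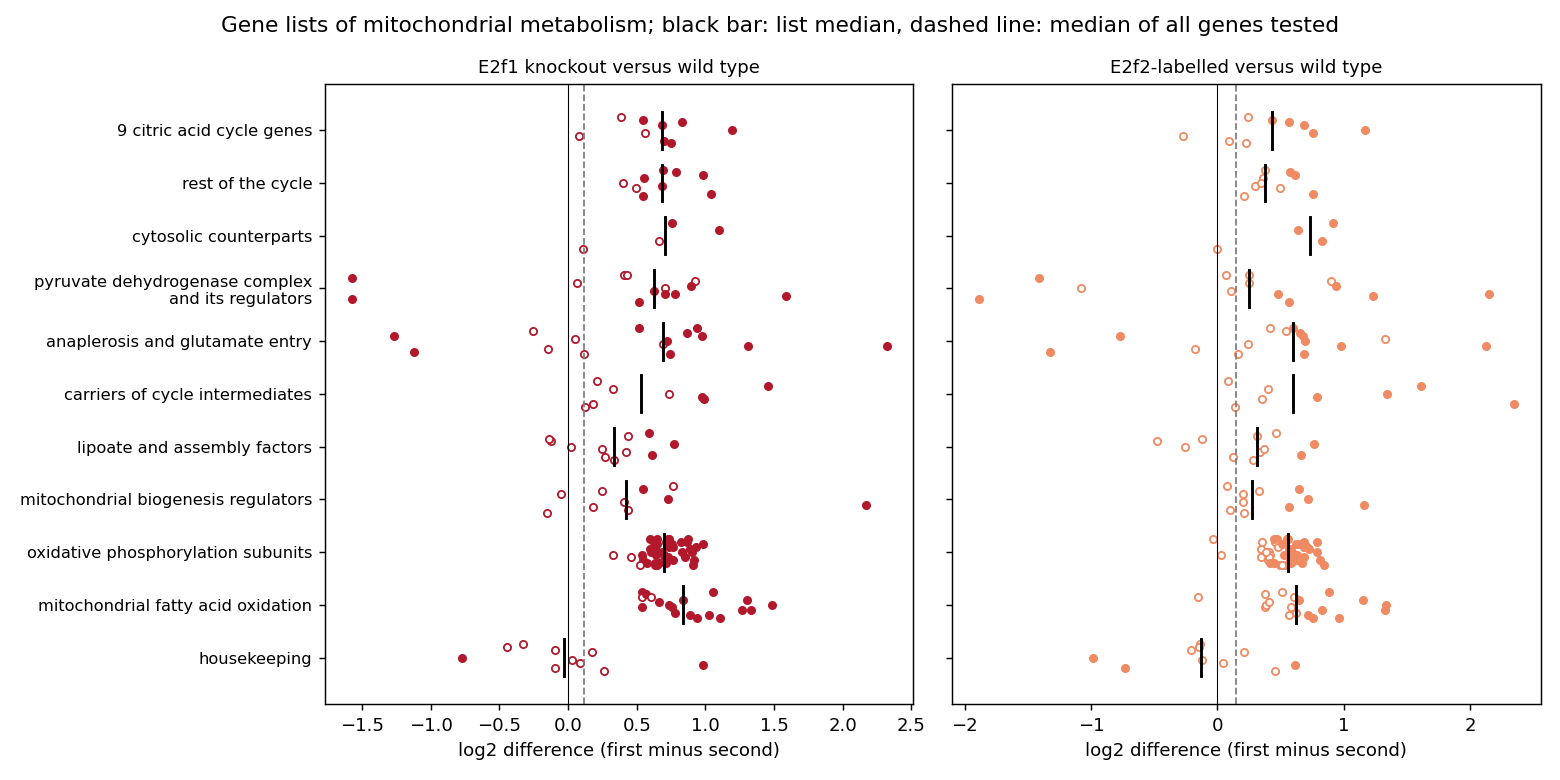
Log2 differences of single genes (points, horizontal axis; filled where adjusted p was under 0.05) by gene list for E2f1 knockout and for E2f2-labelled livers against wild type; black bars are list medians and the dashed line is the median of all genes tested. The points of the 9 citric acid cycle genes centre on 0.69 and 0.44, those of the oxidative phosphorylation subunits on 0.70 and 0.56, and those of the housekeeping genes on -0.03 and -0.13.

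The differences within an array of 6 pairs of subunits or isozymes were tested in 18 comparisons with exact permutation tests of 4 arrays against 4, for which the smallest possible two-sided p is 0.0286. A single comparison at that p cannot pass after adjustment over the 18, and none did. In 3 the groups lay apart (exact permutation p = 0.0286, adjusted 0.1714). The Idh2 to Idh1 log2 ratio differed by -1.10 between E2f2-labelled livers (mean 1.54) and wild type (2.63). The Mdh2 to Mdh1 ratio differed by -0.56 between E2f1 knockout livers (mean 0.63) and wild type (1.19), and by 0.36 between E2f2-labelled (0.99) and E2f1 knockout livers (0.63). For the pairs of Idh3a with Idh3b and Idh3g, Sucla2 with Suclg2, and Ogdh with Dlst, differences ran from -0.07 to 0.53 with exact permutation p of 0.0571 or more.

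Pyruvate reaches the cycle through the mitochondrial pyruvate carrier and the pyruvate dehydrogenase complex. Of 13 genes of this entry and its regulators, 6 rose and 2 fell in E2f1 knockout, and 5 rose and 2 fell in E2f2-labelled livers. Pdhb, which encodes the beta subunit of the first enzyme of the complex, was at 3.75, 3.77, 4.23 and 3.94 in E2f1 knockout livers, at 5.12, 5.31, 5.72 and 5.04 in E2f2-labelled livers, and at 3.00, 3.24, 3.28 and 3.07 in wild type. The 3 groups did not overlap. Pdhb rose by 0.78 ± 0.18 in E2f1 knockout (adjusted p = 0.0109) and by 2.15 ± 0.18 in E2f2-labelled livers (adjusted p = 2.18e-05), and was higher in E2f2-labelled than in E2f1 knockout livers by 1.37 ± 0.18 (adjusted p = 0.0013).

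Its partner Pdha1 did not pass in E2f1 knockout (0.40 ± 0.19, adjusted p = 0.165) or E2f2-labelled livers (0.06 ± 0.19, adjusted p = 0.848), so the subunits differed in their calls; their difference was not tested. The regulators moved in both directions. The kinase Pdk3, which inactivates the complex, fell in both (-1.58 ± 0.39, adjusted p = 0.0152, and -1.89 ± 0.39, adjusted p = 0.00667), as did the phosphatase Pdp1, which activates it (-1.57 ± 0.40, adjusted p = 0.0178, and -1.41 ± 0.40, adjusted p = 0.0283). The Pdk3 signals were dim, at -4.80 to -4.46 in E2f1 knockout, -5.56 to -3.62 in E2f2-labelled and -3.44 to -2.23 in wild-type livers. The size of the Pdk3 fall is therefore less certain. Of the other kinases, Pdk1 rose in E2f1 knockout (0.63, adjusted p = 0.0458, or 0.0628 with quantile normalization) but did not pass in E2f2-labelled livers (0.10, adjusted p = 0.753). Pdk2 did not pass in either (0.92, adjusted p = 0.0636, and 0.90, adjusted p = 0.0682). With the slide as a block Pdk2 passed in both (adjusted p = 0.00602 and 0.00663). Pdk4 did not pass (0.71, adjusted p = 0.436, and -1.08, adjusted p = 0.204). The phosphatase Pdp2 rose in both (1.59 ± 0.30, adjusted p = 0.00467, and 1.23 ± 0.30, adjusted p = 0.0137), and so did the carrier subunit Mpc2 (0.70 ± 0.15, adjusted p = 0.0084, and 0.48 ± 0.15, adjusted p = 0.0426, or 0.225 with quantile normalization). Pdpr, a regulatory subunit of the phosphatase, rose as well (0.90 ± 0.18, adjusted p = 0.00578, and 0.94 ± 0.18, adjusted p = 0.00467), as did Pdhx, which binds the shared subunit Dld to the core of the complex (0.52 ± 0.13, adjusted p = 0.0152, and 0.57 ± 0.13, adjusted p = 0.01). In each pair of values E2f1 knockout stands before E2f2-labelled livers.

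Reactions that fill or drain the cycle gave 8 genes that rose and 2 that fell of 15 in E2f1 knockout, and 7 and 2 in E2f2-labelled livers, or 4 and 2 there with quantile normalization. Pck1, the cytosolic step from oxaloacetate towards glucose, rose by 2.32 ± 0.24 in E2f1 knockout (adjusted p = 0.000211) and by 2.12 ± 0.24 in E2f2-labelled livers (adjusted p = 0.000242). The mitochondrial form Pck2 fell, with differences of -1.26 ± 0.20 (adjusted p = 0.00222) and -0.77 ± 0.20 (adjusted p = 0.018). Its signals were dim, at -4.95 to -4.26 in E2f1 knockout, -4.35 to -3.92 in E2f2-labelled and -3.63 to -3.06 in wild-type livers. The size of the Pck2 fall is therefore less certain. Pccb and Mmut, which turn propionyl-CoA into succinyl-CoA, rose: Pccb by 1.31 ± 0.20 (adjusted p = 0.002) and 0.98 ± 0.20 (adjusted p = 0.00704), and Mmut by 0.98 ± 0.16 (adjusted p = 0.00289) and 0.68 ± 0.16 (adjusted p = 0.0134).

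Of 8 carriers of cycle intermediates, 3 rose in E2f1 knockout livers, 4 rose in E2f2-labelled livers and none fell. Slc13a5, which imports citrate from blood, was at 2.50, 1.35, 0.12 and 0.90 in E2f1 knockout livers, at 3.74, 4.23, 2.51 and 3.04 in E2f2-labelled livers, and at 0.48, 0.94, 1.14 and 1.58 in wild type. Every E2f2-labelled liver was above all others, the nearest by 0.01. The difference was 0.18 ± 0.48 in E2f1 knockout (adjusted p = 0.84) and 2.35 ± 0.48 in E2f2-labelled livers (adjusted p = 0.00669), and 2.16 ± 0.48 between E2f2-labelled and E2f1 knockout livers (adjusted p = 0.0457, or 0.0543 with the slide as a block and 0.0615 with quantile normalization). The aspartate and glutamate carrier Slc25a13 rose in both (0.98 ± 0.17, adjusted p = 0.00307, and 0.79 ± 0.17, adjusted p = 0.00753).

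Lists of neighbouring mitochondrial pathways were counted in the same fit, with E2f1 knockout given before E2f2-labelled livers. Of 45 oxidative phosphorylation subunits 42 and 31 rose, with medians of 0.70 and 0.56, or 25 and 9 after quantile normalization, and none fell in these fits. Ndufa4, of the respiratory chain, rose by 0.93 ± 0.15 (adjusted p = 0.00256) and 0.68 ± 0.15 (adjusted p = 0.00947), and the ATP synthase subunit Atp5b by 0.75 ± 0.12 (adjusted p = 0.00285) and 0.51 ± 0.12 (adjusted p = 0.0144, or 0.0813 with quantile normalization). A single subunit was called between E2f2-labelled and E2f1 knockout livers: Ndufb8 of complex I was lower in E2f2-labelled than in E2f1 knockout livers (-0.76 ± 0.16, adjusted p = 0.0303). Of 19 fatty acid oxidation genes 17 and 9 rose, or 18 and 14 with the slide as a block and 12 and 6 after quantile normalization. Cpt2, which hands imported fatty acids to coenzyme A in the matrix, rose by 1.33 ± 0.24 (adjusted p = 0.00421) and 1.32 ± 0.24 (adjusted p = 0.00402), and the thiolase Acaa2 by 1.06 ± 0.18 (adjusted p = 0.00347) and 0.89 ± 0.18 (adjusted p = 0.00706). Of 11 genes for lipoate, iron-sulfur clusters and succinate dehydrogenase assembly, 3 and 2 rose. Of 10 regulators of mitochondrial biogenesis, 3 and 4 rose, among them the coactivator Ppargc1b (2.17 ± 0.32, adjusted p = 0.00163, and 1.16 ± 0.32, adjusted p = 0.0245). Of 10 housekeeping genes 1 rose in each comparison, Sdha, which is also in the cycle, while 1 and 2 fell. The median over all 10, Sdha included, was -0.03 and -0.13, or -0.38 and -0.39 with quantile normalization. The remaining genes of that list are not reported here one by one.

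Markers of the cells in a liver homogenate were read beside these counts. In such bulk RNA fewer cells of a type and less RNA per cell cannot be told apart. All 6 hepatocyte markers were tested. Of these 2 rose in E2f1 knockout livers, with 1 rising in E2f2-labelled livers (2 higher and 1 lower, and 1 higher and 2 lower, with quantile normalization), and their summed signal (log2) ran from 12.629 to 13.173 in E2f1 knockout, from 12.355 to 12.996 in E2f2-labelled and from 12.412 to 12.963 in wild-type livers. Of 4 neutrophil markers 2 fell in E2f1 knockout and none passed in E2f2-labelled livers, with sums of 2.86 to 6.08, 4.01 to 6.999 and 5.97 to 7.54. Of 5 markers of stellate cells and fibroblasts 2 and 3 fell (sums 6.38 to 6.86, 6.67 to 6.80 and 6.14 to 7.40), and of 5 endothelial markers 1 and 2 fell (5.76 to 6.23, 6.01 to 6.28 and 5.89 to 6.31). In each set of ranges E2f1 knockout comes before E2f2-labelled and wild-type livers.

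Of 6 macrophage markers 1 rose in E2f1 knockout, and 1 rose and 1 fell in E2f2-labelled livers, with sums of 7.70 to 8.996, 6.95 to 9.12 and 6.57 to 8.33. Of 4 tested markers of T and NK cells none passed in E2f1 knockout and 2 fell in E2f2-labelled livers, with sums of 3.60 to 4.12, 3.47 to 4.15 and 3.73 to 4.64. Of 3 B cell markers 1 rose in E2f1 knockout and none passed in E2f2-labelled livers (sums -0.56 to -0.01, -1.28 to -0.68 and -1.54 to -0.58), and neither of the 2 tested cholangiocyte markers nor the 1 tested adipocyte marker passed. None of the 4 skeletal muscle markers was bright enough to be tested. The part of these differences in the values of the 9 genes was not tested.

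**Figure D4:**
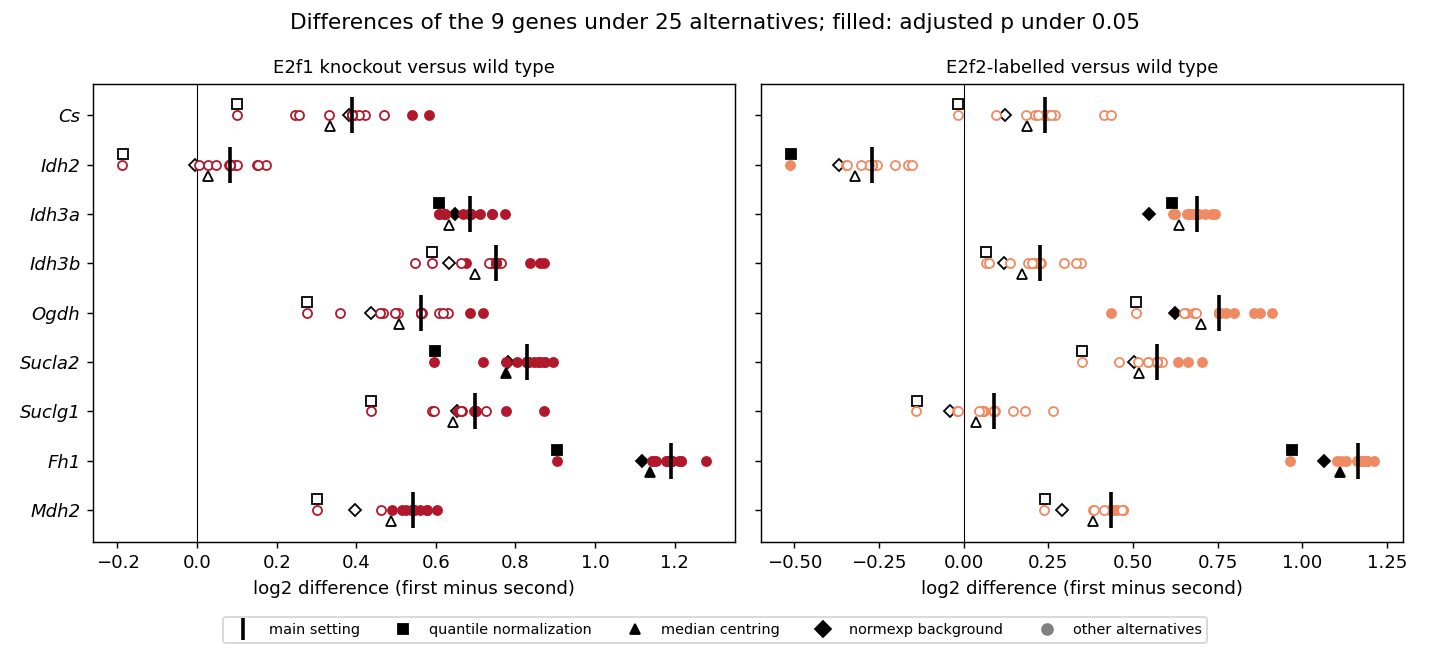
Log2 differences of the 9 genes against wild type (horizontal axis) under 25 alternatives; black bars are the values as reported, squares, triangles and diamonds are quantile normalization, median centring and normexp background correction, circles are all other alternatives, and filled symbols passed an adjusted p under 0.05. Fh1 is filled throughout, from 0.91 to 1.28 in E2f1 knockout and from 0.97 to 1.21 in E2f2-labelled livers, while Idh2 lies on both sides of 0 in E2f1 knockout.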

How the data were processed

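Liver RNA of 12 mice (50 ng labelled per array, per the labels) was hybridised to one-colour Agilent arrays. The deposited scanner files hold, per the file headers, a background-subtracted processed intensity, and the submitters' processing notes name Agilent Feature Extraction 10.7.3.1. The deposited series matrix holds log2 values whose columns share 1 median (3.84). It correlates with the log2 scanner signal at 0.998 or more. The sources used here do not say how it was scaled and centred, its rows were joined by probe name, and it served as an alternative only.

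Control and outlier spots were left out, the log2 intensity was scaled to each array's 75th percentile (107.7 to 211.7 intensity units), and probes entered the fit where 3 or more of the 4 arrays of some group flagged them well above background. Per array 44.7% to 54.4% of probes carried that flag, and the number of arrays limits the precision. All 20584 genes entered 1 limma fit (limma 3.58.1, R 4.3.3) of 12 arrays without covariates, with Benjamini-Hochberg adjustment over all genes and adjusted p under 0.05 called; every adjusted p without another test named is from it. Standard errors are limma's, moderated over all genes. Both comparisons with wild type share its 4 arrays.

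Replicate numbers follow the slides, each of which held 1 array of each group. Arrays of 1 slide deviated together with correlations of 0.042 to 0.424, over 0.1 in 10 of 12 pairs, so the slide was also fitted as a block. Named are the 9 members, genes of the cycle, its isozymes and pyruvate entry, up to 4 genes with the smallest adjusted p of each other list, and the 6 nearest patterns; some list genes are not reported here. The members and lists were chosen with earlier results of these data known. The labels give 1 mouse per array. The limma script was tested on simulated data. Background correction, scaling, dim-probe filter, probe choice, array weights, variance model and left-out arrays were tried as alternatives.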

Additional observations from a re-analysis of the deposited data

Results flagged for a closer look

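In 27 groups of 4 arrays (9 genes in 3 groups), 2 held an array far from the other 3; chance gives about 1 in 20 such groups. Sucla2 in the third E2f1 knockout liver (5.37, against 4.90 to 4.96 in the others) had a gap of 0.876 of the group's whole range. Fh1 in the second E2f2-labelled liver (6.56, against 6.30 to 6.34) had a gap of 0.857 of the range. Each of these arrays was left out in turn, and both genes were still called against wild type in E2f1 knockout livers, as was Fh1 in E2f2-labelled livers. Sucla2 in E2f2-labelled livers was still called without the third E2f1 knockout array, but not without the second E2f2-labelled array. For 2 genes that feed the cycle the difference between E2f2-labelled and E2f1 knockout livers was tested and passed: Pdhb was higher in E2f2-labelled livers by a log2 difference of 1.374 (adjusted p = 0.0013), and Slc13a5 by 2.162 (adjusted p = 0.0457). The call of Slc13a5 was lost with the slide as a block (adjusted p = 0.0543) and with quantile normalization (adjusted p = 0.0615).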

How the results depend on the processing

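Calls were made again under 25 alternatives, 12 of them leaving out 1 array. Fh1 was called in both comparisons with wild type under all of them, Sucla2 in E2f1 knockout under all, and Idh3a in each comparison under all but median centring. No alternative called a member between E2f2-labelled and E2f1 knockout livers. In E2f1 knockout, where 6 members were called, 3 were called with normexp, quantile normalization, matrix values or no dim-probe filter, 2 with median centring, and 3 to 6 with 1 array left out. In E2f2-labelled livers, where 5 members were called, 3 were called with normexp, 2 without the filter or with only the 2 groups in the fit, 1 with median centring, and 2 to 5 with 1 array left out. With quantile normalization or matrix values 3 were called there, of which Idh3a and Fh1 are among the 5 and Idh2, called lower, is not. The members' median became 0.438 (quantile) and 0.436 (matrix) in E2f1 knockout, and 0.29 (normexp), 0.241 (quantile) and 0.238 (matrix) in E2f2-labelled livers, beside 0.034 and 0.068 over all genes with quantile normalization. The cause was not tested. All genes called numbered 2691 without the filter in E2f1 knockout (4177 as reported), where more genes were tested, and 6460 with array weights in E2f2-labelled livers (4187). Between E2f2-labelled and E2f1 knockout livers (328) they numbered 213 with normexp, 202 with probes above background on all 12 arrays, 567 with the slide as a random block and 511 with array weights. With 1 array left out they ran from 2522 to 4857, 2565 to 5139 and 235 to 364; the lowest came without the second wild-type array in the first and second comparison, and without the third E2f1 knockout array the first was 2554.

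The direction turned for values near 0. Against wild type these were Idh2 in E2f1 knockout (-0.005 normexp, -0.187 quantile, -0.188 matrix), Cs in E2f2-labelled livers (-0.015 quantile, -0.017 matrix) and Suclg1 there (-0.041 normexp, -0.139 quantile, -0.14 matrix and -0.018 to 0.263 with 1 array left out, below 0 without wild-type array 3 or E2f2-labelled array 3). Between E2f2-labelled and E2f1 knockout livers they were Idh3a (-0.1 with normexp and -0.086 to 0.081 with 1 array left out) and Fh1 (0.064 quantile, 0.06 matrix, 0.034 array weights and -0.114 to 0.017 with 1 array left out). The fit with the slide as a replicate block added Ogdh in E2f1 knockout (7 of 9, adjusted p = 0.0104) and changed no other member's call.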
